A study of Mus musculus with 3 samples.

Results

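Genes of the ciliary transition zone and of transport into and within the cilium were followed in the cortex of adult mice that carry 1 changed copy of Gtf2i. The set has 38 genes by symbol, of 15724 symbols that could be matched to the array. It was put together around Tmem107, whose high ratio on these same arrays was the reason for the choice, to see whether other genes of its complex and of ciliary transport read likewise. The ratio of Tmem107 is therefore given as a description with no test. Of the 38 genes, 31 were matched to 47 probes through the RefSeq accession of the probe. All 31 had at least 1 tested probe, where tested means marked reliable on at least 2 of 3 arrays. That filter left out 5 dim probes and no matched gene. The other 7 genes, Tctn1, Bbs1, Tmem231, Ift140, Cep290, Tmem237 and Mks1, had no matched probe and were not analysed here.

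Each of the 3 two-colour arrays set RNA of Gtf2i(+/Δex2) cortex against RNA of WT(+/+) cortex, so each array gives a ratio and there is 1 group of arrays. Gtf2i encodes the general transcription factor TFII-I, and the mutant mice are heterozygous for an allele named for a deletion of exon 2. The animals were 16 weeks old, and both genotypes had a mixed background of 98.4% C57BL/6J and 1.6% 129Sv/CD1. Each RNA was a pool of 3 to 5 mice of 1 genotype, and no label says whether the arrays share pools. Every test thus measures the spread between arrays only, and that may be technical. The mutant RNA carried Cy3 on replicates 1 and 3 and Cy5 on replicate 2. Ratios are log2 of mutant over wild type throughout, with the direction likely from the order in the sample titles, the deposited readme and dye control spots.

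The transition zone is a gate at the base of the cilium, where Y-shaped links tie the microtubules to the membrane and protein complexes limit what enters. One complex holds the MKS and tectonic membrane proteins with their B9-domain and scaffold partners, a second holds nephronophthisis proteins, and CEP290 is a further component. Past this gate, intraflagellar transport (IFT) particles carry cargo along the axoneme, IFT-B mainly outward and IFT-A mainly back. The BBSome moves membrane proteins such as G protein-coupled receptors. Most neurons and astrocytes of the cortex carry a primary cilium, and inherited loss of many of these genes causes Joubert, Meckel or Bardet-Biedl syndrome.

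Across the whole array, differences between the genotypes were many and mostly small. With limma, 33.9% of 27531 tested probes passed an adjusted p of 0.05. By gene, taken by its probe with the smallest p, 17.1% of 12721 tested genes were called higher in the mutant, 23.6% lower and 40.7% in either direction. Reliable gene spots made up 64.4% to 69.7% of each array. Gtf2i itself read -0.47 ± 0.04 at 1 probe and -0.32 ± 0.05 at another (SD, n = 3 arrays). The position of both probes with respect to exon 2 is unknown here, so they do not check the deletion. Replicate 1 lay between the other arrays. Ratios over tested probes correlated with it at r = 0.822 for replicate 2 and 0.783 for replicate 3, against 0.625 between replicates 2 and 3. Probes are not independent replicates, and dropping replicate 1 lowered the number of called probes from 9333 to 2407.

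Tmem107, a membrane protein of the MKS complex that is needed for the composition of the ciliary membrane, had the highest mean ratio of the members. Its signal in the mutant RNA was 3764, 4417 and 1324 on replicates 1 to 3, and in the wild-type RNA 1080, 1195 and 915. The mutant signals all lay above the wild-type ones, but replicate 3 was much nearer to them than the other arrays. The log2 ratios were 1.80, 1.89 and 0.53, with a mean of 1.41 ± 0.76 (SD, n = 3), which is 2.65-fold. That spread was exceeded by 47 of the 27531 tested probes. The mutant signals differed more between arrays than the wild-type ones. The value rests on 1 probe, and only 4 tested probes, none with a gene name here, had a higher mean ratio. Its nearest tested neighbours on chromosome 11 did not share it. Rangrf, a partner of the GTPase RAN, read -0.04 ± 0.05 (limma adjusted p = 0.526), and Vamp2, a synaptic vesicle SNARE, fell by 0.19 (-0.19 ± 0.04, adjusted p = 0.018; SD, n = 3 for each).

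**Figure D1:**
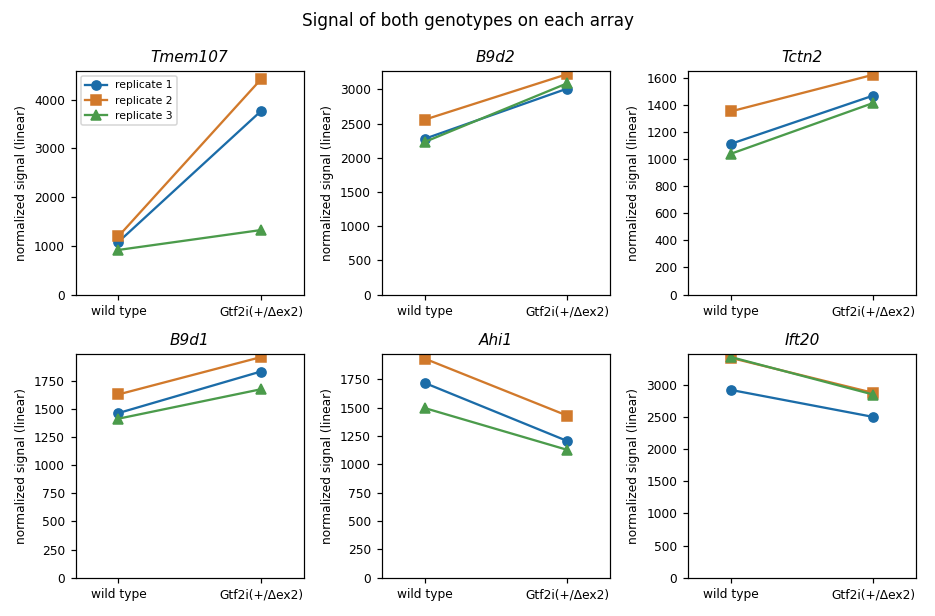
Normalized linear signal (y axis, from 0) of the wild-type and Gtf2i(+/Δex2) RNA on each of the 3 arrays, with 1 line per replicate, for Tmem107 and 5 other members. Tmem107 climbed steeply on replicates 1 and 2 and little on replicate 3, while B9d2, Tctn2 and B9d1 were higher and Ahi1 and Ift20 lower in the mutant by similar steps on all arrays.

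The promoters were also searched for a sequence tied to ciliary genes. It was not itself used to choose the members. They were chosen as ciliary genes, however, so its share is not independent of the choice. RFX transcription factors, which switch on ciliary genes, bind the X-box, an inverted repeat. It was searched as GTTNCC, then 1 to 3 bases, then GGNAAC, a motif that reads the same way on both strands, and separately as the single arm GTTGCC on either strand, which overlaps the first motif. RefSeq promoters of assembly GRCm38.p6, 250 bases before to 50 after each start, were at hand for 34 members. The paired motif was in 6 of them, or 17.6% (Ahi1, Bbs7, Ift57, Mks1, Tctn1 and Tctn3), against 0.903% of 27025 genes and 0.852% of tested genes. The single arm was in 19 of 34, or 55.9%, against 14.1% of all genes. Among 40 genes of motile cilia and ependymal cells, a list read further below, it was in 20 (50%) and the paired motif in 2 (5%). The promoter of Tmem107 held neither, which says only that these letters are not in that window.

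The 4 tested members with the paired motif are shown, alike in that element because the search asked for it. Their reads on the arrays follow the sequences. All run 5′ to 3′ on the strand of the gene, from RefSeq on GRCm38.p6, with the paired motif in capitals. The motif begins 21 bases past the start in Ahi1, for which only its surroundings are shown, and 60, 140 and 121 bases before the start in Ift57, Tctn3 and Bbs7, for which the 250 bases before the start are shown.
Ahi1 (chr10:20952560-20952589, plus strand): tagtctgaGTTACCTAGGCAACagcggcag
Ift57 (chr16:49699044-49699293, plus strand): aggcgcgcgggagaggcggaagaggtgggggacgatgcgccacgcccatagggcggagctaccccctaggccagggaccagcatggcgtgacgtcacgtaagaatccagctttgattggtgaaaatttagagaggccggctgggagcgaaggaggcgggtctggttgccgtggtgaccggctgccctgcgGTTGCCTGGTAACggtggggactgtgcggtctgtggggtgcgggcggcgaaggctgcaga
Tctn3 (chr19:40612232-40612481, minus strand): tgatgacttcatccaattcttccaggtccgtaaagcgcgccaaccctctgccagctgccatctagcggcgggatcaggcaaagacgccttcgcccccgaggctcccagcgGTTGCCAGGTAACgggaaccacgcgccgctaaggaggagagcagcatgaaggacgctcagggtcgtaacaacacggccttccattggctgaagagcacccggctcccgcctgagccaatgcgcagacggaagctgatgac
Bbs7 (chr3:36613390-36613639, minus strand): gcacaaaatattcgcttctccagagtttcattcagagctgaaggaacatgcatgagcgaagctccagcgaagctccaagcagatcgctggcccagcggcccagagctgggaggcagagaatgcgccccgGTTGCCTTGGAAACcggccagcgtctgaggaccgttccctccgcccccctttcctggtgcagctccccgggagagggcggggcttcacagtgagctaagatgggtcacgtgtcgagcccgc
Ahi1 and Tctn3 were lower in the mutant, Ift57 was higher, and Bbs7 was not called. The authors marked the tested probe of Bbs7 absent in all 6 channels of the arrays, so its ratio says little of expression. The call of Tctn3 was lost in 9 of 14 alternatives and that of Ift57 in 4 of 16. These reads are too few and weak to set the motif against a direction. The single arm did not go with a direction by count. It was in 5 of 8 members called higher, 3 of 6 called lower and 5 of 12 not called. A match is a description of these letters and does not show binding.

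The high ratio of Tmem107 was not general in the set. Of the other 30 members, 9 rose and 6 fell in the mutant cortex, and 15 did not pass. The called share was 50%, with 30% higher and 20% lower, beside 17.1% higher and 23.6% lower among all tested genes. From these shares nothing is read for the set, since its genes were not matched to others in brightness or number of probes. The median of the 30 members was -0.0038, with a sign that turned with the processing, and that of all tested genes -0.016. The highest member was B9d2 at 0.40 and the lowest Ahi1 at -0.45. In whole tissue, fewer cells of a type and less RNA per cell cannot be told apart. The calls leaned on replicate 1. Without it, 13 of the 15 called members lost their call, which left 1 higher (B9d2) and 1 lower (Ahi1). With replicates 1 and 2 averaged and counted as 1, 7 members were called higher and 3 lower, in place of 9 and 6. With array weights, which gave replicate 1 most of the weight, 12 were called higher and 13 lower. Called probes on the whole array then went from 9333 to 18614.

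**Figure D2:**
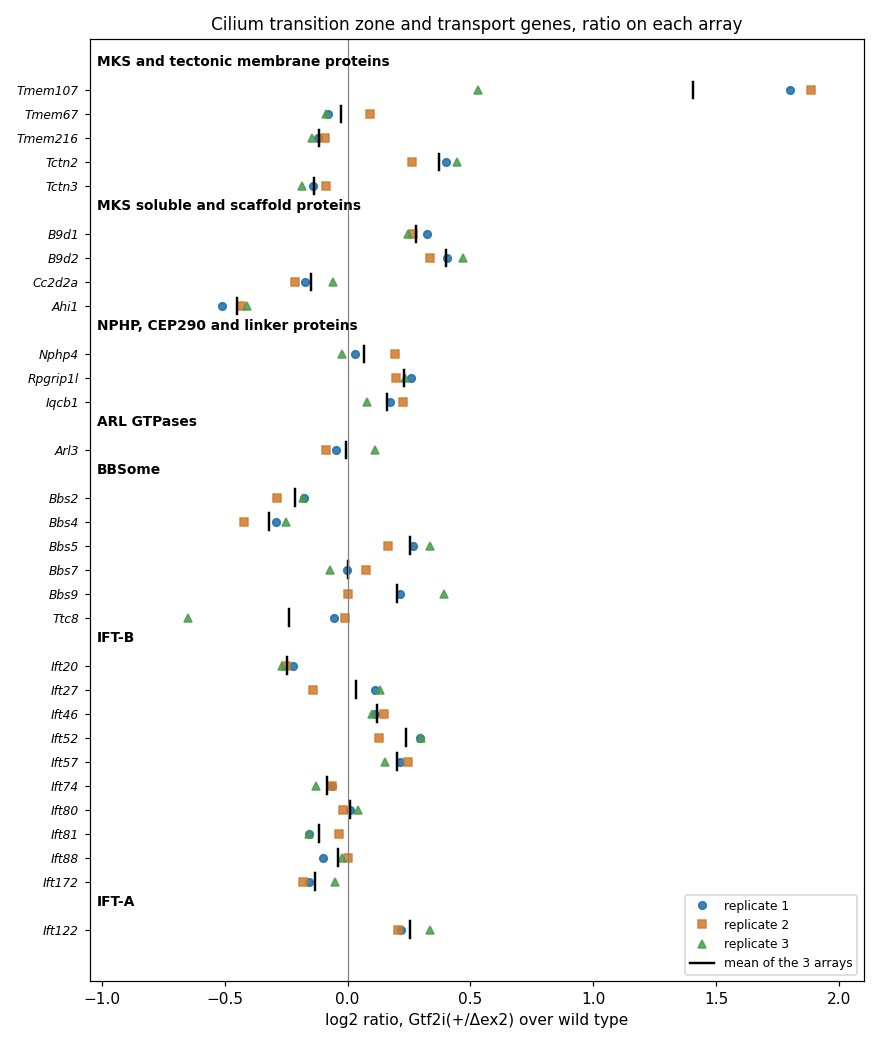
Log2 ratio of mutant over wild type (x axis) for 30 of the 31 tested members, grouped by role, with a marker for each of the 3 arrays and a bar at their mean. Tmem107 stands apart on replicates 1 and 2, at 1.80 and 1.89, and reads 0.53 on replicate 3, near B9d2 at 0.47, while the other members lie on both sides of 0 in most roles.

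Among membrane proteins of the MKS and tectonic complex, none of the other 4 tested genes read as high as Tmem107. Tctn2, a tectonic of the complex, had a mutant signal of 1468, 1622 and 1414 on replicates 1 to 3 and a wild-type signal of 1112, 1351 and 1038. The mutant values all lay above the wild-type values, and Tctn2 rose by 0.37 ± 0.09 (log2, SD, n = 3, limma adjusted p = 0.00579), or 1.29-fold. Without replicate 1 its adjusted p was 0.0519. Tctn3, the related tectonic, had log2 ratios of -0.14, -0.09 and -0.19 and fell by 0.14 (limma adjusted p = 0.0484), a call that 9 of 14 alternatives ended. Its signals ran from 215 to 258, near the median of all gene spots, and the authors marked its probe present in 1 of 6 channels and absent in 0. Tmem216, a tetraspan-like protein of the complex, had ratios of -0.12, -0.09 and -0.14 and did not pass (limma adjusted p = 0.0605). Its signals ran from 187 to 246, and its probe was marked present in 0 of 6 channels. Tmem67, the receptor-like protein called meckelin, read -0.08, 0.09 and -0.09 at a probe that was reliable on 2 arrays (limma adjusted p = 0.727). That probe was dim, with signals of 132 to 157, and was marked absent in 5 of 6 channels and present in 0. Of the 4 genes only Tctn2 had a probe marked present in all 6 channels, so the other ratios say little of expression. Within this role the signs were thus mixed, with 1 of 4 genes called higher and 1 lower.

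The soluble and scaffold partners held the largest changes in the set besides Tmem107. B9d2, a B9-domain protein of the MKS complex, had a mutant signal of 3011, 3222 and 3088 and a wild-type signal of 2277, 2556 and 2230 on replicates 1 to 3. No mutant value overlapped a wild-type value, and B9d2 rose by 0.40 ± 0.07 (log2, SD, n = 3, limma adjusted p = 0.00382), or 1.32-fold. B9d1, its B9-domain partner, had mutant signals of 1830, 1958 and 1673 against 1461, 1627 and 1411, again with no overlap. B9d1 rose by 0.28 ± 0.04 (log2, SD, n = 3, limma adjusted p = 0.00643), or 1.21-fold, and its adjusted p without replicate 1 was 0.0739.

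Ahi1, the scaffold protein jouberin that is a Joubert syndrome gene, went the other way. Its brighter probe had a mutant signal of 1207, 1431 and 1129 and a wild-type signal of 1719, 1934 and 1497. Every mutant value lay below every wild-type value, and Ahi1 fell by 0.45 on the log2 scale (-0.45 ± 0.05, SD, n = 3, limma adjusted p = 0.00304), to 73.2% of wild type. A second, dimmer probe of Ahi1 had ratios of -0.59, -0.50 and -0.20 and a mean of -0.43 ± 0.20 (SD, n = 3, limma adjusted p = 0.0141). B9d2 and Ahi1 were the 2 members that kept their call in every alternative run, with limma adjusted p of up to 0.0371 and 0.0307. Cc2d2a, a scaffold with a C2 domain, read -0.17, -0.21 and -0.06 and did not pass (limma adjusted p = 0.0563). Its signals, from 162 to 193, were below the median of gene spots.

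In the nephronophthisis group, 2 of 3 tested genes rose. Among all tested genes 17.1% were called higher and 23.6% lower, and nothing is read from the small counts of this or the other roles. Rpgrip1l, the scaffold that helps to assemble the transition zone, had ratios of 0.26, 0.20 and 0.23 and rose by 0.23 ± 0.03 (SD, n = 3, limma adjusted p = 0.00987). A second tested probe of Rpgrip1l, much dimmer, read -0.02 (limma adjusted p = 0.697), and 2 more of its probes were too dim to be tested. Iqcb1, also known as NPHP5, which binds CEP290, rose by 0.16 ± 0.07 with ratios of 0.17, 0.22 and 0.08 (SD, n = 3, limma adjusted p = 0.0432). Nphp4, a further nephronophthisis protein, read 0.07 ± 0.11 (SD, n = 3, limma adjusted p = 0.38). The call of Iqcb1 was lost in 5 of 14 alternatives.

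The small GTPase ARL3 releases lipid-modified cargo inside the cilium. Arl3, at a bright probe, read -0.05, -0.09 and 0.11, with no common direction (limma adjusted p = 0.925).

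Of 6 tested BBSome subunits 1 rose, 2 fell and 3 did not pass. Bbs5, which can bind phosphoinositides, had ratios of 0.27, 0.16 and 0.33 and rose by 0.26 ± 0.09 (SD, n = 3, limma adjusted p = 0.0136), while its brighter probe read 0.05 (limma adjusted p = 0.448). Bbs4, a subunit made of TPR repeats, had ratios of -0.29, -0.42 and -0.25 and fell by 0.32 (limma adjusted p = 0.00766). The brighter probe of Bbs4 read 0.03 ± 0.02 (SD, n = 3, limma adjusted p = 0.606), so the direction of this gene turned with the probe. Bbs2, a beta-propeller subunit, had ratios of -0.18, -0.29 and -0.18 and fell by 0.21 (limma adjusted p = 0.0162) at a dim probe with signals of 177 to 220. Bbs9, a large core subunit, read 0.21, 0.0023 and 0.39, above 0 on every array but widely spread (0.20 ± 0.19, SD, n = 3, limma adjusted p = 0.0993). Ttc8, also known as BBS8, read -0.06, -0.01 and -0.65. Replicate 3 alone was low there, and the gene did not pass (limma adjusted p = 0.21). Bbs7 read -0.0032, 0.08 and -0.07 at a dim probe with signals of 123 to 145 (limma adjusted p = 0.997).

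Of 10 tested IFT-B genes 2 rose, 1 fell and 7 did not pass, from -0.25 to 0.24. Ift20, which also works at the Golgi in sorting proteins toward the cilium, had a mutant signal of 2497, 2870 and 2844 and a wild-type signal of 2916, 3414 and 3427. Mutant and wild-type values did not overlap, and Ift20 fell by 0.25 (-0.25 ± 0.02, SD, n = 3, limma adjusted p = 0.00756). A brighter second probe of Ift20 read -0.18 ± 0.01 (SD, n = 3, limma adjusted p = 0.0165), so both its probes were lower. Ift52, which holds the IFT-B core together, had ratios of 0.29, 0.13 and 0.30 and rose by 0.24 ± 0.10 (SD, n = 3, limma adjusted p = 0.0195). Its second probe read 0.12 (limma adjusted p = 0.102). Ift57, a peripheral IFT-B subunit and 1 of the genes whose promoter is printed above, had ratios of 0.21, 0.24 and 0.15 and rose by 0.20 ± 0.05 (SD, n = 3, limma adjusted p = 0.0161). The other 2 probes of Ift57 read 0.16 and 0.12, positive but not past the threshold (limma adjusted p = 0.081 and 0.0733).

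The IFT-B genes that did not pass included the tubulin-binding pair Ift74 and Ift81. Ift74 read -0.09 (limma adjusted p = 0.141), and the probes of Ift81 read -0.12 and 0.14, of opposite sign (limma adjusted p = 0.0966 and 0.134). Ift46, a core subunit, read 0.12 (limma adjusted p = 0.0583), and Ift172, the largest subunit of the particle, -0.13 (limma adjusted p = 0.0691). A dimmer tested probe of Ift46 read 0.03 and a brighter tested probe of Ift172 -0.11 (limma adjusted p = 0.613 and 0.212). Ift88, whose loss removes cilia in mice, read -0.04, Ift80 0.01 and the small GTPase gene Ift27 0.03, with limma adjusted p of 0.473, 0.837 and 0.722. Ift122, the 1 tested IFT-A subunit, had ratios of 0.22, 0.20 and 0.34 and rose by 0.25 ± 0.07 (SD, n = 3, limma adjusted p = 0.0117). Between IFT-A and IFT-B no difference was tested.

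Probes of 1 gene did not always read alike. Of 10 members with more than 1 tested probe, 7 had probes of 1 sign, and in 2, Ahi1 and Ift20, every tested probe was called. Rpgrip1l, Bbs4 and Ift81 had probes of both signs. By the authors' spot calls 21 of the 31 tested members were present in all 6 channels of the arrays. Values of dim probes moved with the background setting. After subtraction of the negative control median, Bbs2 read -0.38, Cc2d2a -0.28 and Tctn3 -0.22, each lower than as deposited. Of the 15 called members, 8 rest on 1 tested probe, as Tmem107 does. No source used here gives the part of the transcript that each probe reads.

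**Figure D3:**
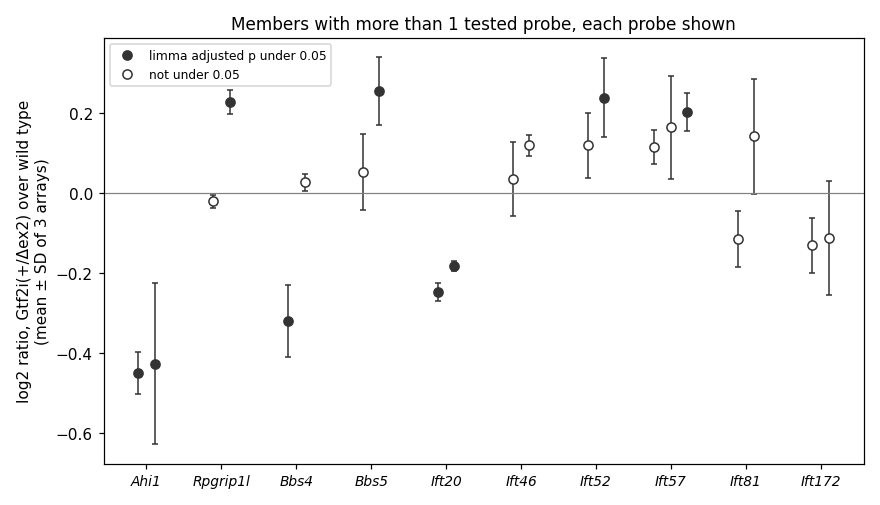
Mean log2 ratio of mutant over wild type (y axis; bars are the SD of 3 arrays) for each tested probe of the 10 members with more than 1, filled where the limma adjusted p was under 0.05. Both probes of Ahi1 and of Ift20 are filled and below 0, while Bbs4 has a filled probe at -0.32 and an open one at 0.03.

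Each member counts here by its probe with the smallest p. Values over all tested probes were taken without that choice, so they are not like for like. The SD of the 30 members over the 3 arrays had a median of 0.070 and ran from 0.022 to 0.36. The median over all tested probes was 0.074, and Tmem107 had an SD of 0.76. In 23 of the 30 members all arrays had 1 sign, and in 65.1% of all tested probes. So did all 15 called members, which a call largely requires. The medians of the 30 members were -0.024, -0.0048 and -0.024 on replicates 1 to 3, and 14, 15 and 14 of them lay above 0. Across the 30 members, which are not independent and share arrays and pools, ratios correlated at r = 0.887 between replicates 1 and 2, 0.857 between 1 and 3 and 0.686 between 2 and 3. The limma fit with dye orientation, which had 1 residual degree of freedom, called 0 probes on the whole array (2409 at an unadjusted p under 0.05), so it says nothing particular of the 42 member probes, of which 4 had such a p.

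The other genes of the cilium, taken as 8 lists beside the set, were called in 32.5% of 123 tested genes, with 22 higher (17.9%) and 18 lower (14.6%) and a median of 0.02. Among all tested genes 40.7% were called, 17.1% higher and 23.6% lower, and nothing is read from the lists beside these shares. Among 13 other transition zone and nephronophthisis genes 1 rose and 2 fell. Armc9, a Joubert syndrome gene of the ciliary base, fell by 0.61 (-0.61 ± 0.16, SD, n = 3, limma adjusted p = 0.00406), and its second probe read -0.16 and did not pass. Cep41, a protein needed for tubulin glutamylation in the cilium, fell by 0.28 (limma adjusted p = 0.0102). A second probe of Cep41 read -0.11 and did not pass (limma adjusted p = 0.0896). Tmem17, which belongs to the same membrane complex as Tmem107, rose by 0.21 ± 0.04 (SD, n = 3, limma adjusted p = 0.0135). Without replicate 1 the counts over all 8 lists were 6 higher and 3 lower.

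Among 16 other IFT subunits and motors 3 rose and 4 fell. Kifap3 and Kif3b, subunits of the kinesin-2 motor that drives IFT outward, fell by 0.35 and 0.25 (limma adjusted p = 0.00442 and 0.0083). Further probes of Kifap3 read -0.31 and -0.12 (limma adjusted p = 0.00516 and 0.265). Wdr60, an intermediate chain of the dynein-2 motor of return transport, fell by 0.31 (limma adjusted p = 0.00494). Ttc30a1, which encodes an IFT-B subunit, rose by 0.37 ± 0.13 at 1 probe and read 0.07 at another (SD, n = 3, limma adjusted p = 0.00889 and 0.229). In the list of other BBSome, ARL and lipidated-cargo genes 5 of 14 rose (35.7%) and 0 fell, with 0 lower at an unadjusted p under 0.05 in the limma fit, beside 17.1% higher and 23.6% lower among all tested genes. They included Pde6d, a carrier of prenylated cargo, at 0.40 ± 0.03 and Rabep2 at 0.34 ± 0.16 (SD, n = 3 for each). Arl2bp, which binds ARL2 and ARL3, read 0.18 ± 0.03 and Rp2, a GTPase-activating protein for ARL3, 0.21 ± 0.08 (SD, n = 3 for each). The limma adjusted p of these named genes ran from 0.0032 to 0.0222. A second probe of Arl2bp read 0.19 (limma adjusted p = 0.023), and a second probe of Rp2 read 0.04 and did not pass (limma adjusted p = 0.513).

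Among 19 centriole and ciliogenesis genes 7 rose and 2 fell. Ofd1, a centriole protein, rose by 0.43 ± 0.06 (SD, n = 3, limma adjusted p = 0.00335), Ehd1, a membrane-shaping ATPase, by 0.36 ± 0.07, and the kinase gene Mark4 fell by 0.32. Sass6, the cartwheel protein of new centrioles, read 0.53 at 1 probe and -0.17 at another, both past the threshold. Of 19 Hedgehog signalling genes, a pathway that runs through the cilium, 4 rose and 6 fell. Evc2 rose by 0.37 ± 0.14 and Iqce by 0.22 ± 0.06 at 1 of 2 probes (SD, n = 3), both of a complex that acts near the ciliary base, while Evc, the partner of Evc2 in that complex, named here after its value was seen, fell by 0.20 (-0.20 ± 0.07, SD, n = 3, limma adjusted p = 0.0206). Tulp3, an adaptor that brings receptors into the cilium, fell by 0.23. Grk2, the kinase of activated receptors, had called probes at 0.40 and -0.20.

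Of 18 genes of the neuronal ciliary membrane 1 rose and 3 fell. The melanin-concentrating hormone receptor gene Mchr1 fell by 0.27, the galanin receptor gene Galr3 by 0.25 and Adcy3, the adenylyl cyclase used to mark neuronal cilia, by 0.20 (limma adjusted p = 0.00611, 0.00761 and 0.0453). A second probe of Adcy3 read -0.14 and did not pass (limma adjusted p = 0.157). Pkd2, a cation channel of the cilium, had called probes at 0.44 and -0.23. Of 7 RFX and FOXJ1 regulators only Rfx5, known from immune genes, rose, by 0.17 ± 0.04 (SD, n = 3, limma adjusted p = 0.0268). Of 18 genes of motile cilia and ependymal cells 0 rose and 1 fell, Ccdc151, a docking factor for outer dynein arms, by 0.21 (limma adjusted p = 0.0148). At an unadjusted p under 0.05 in the limma fit 0 of these 18 were higher and 1 lower.

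**Figure D4:**
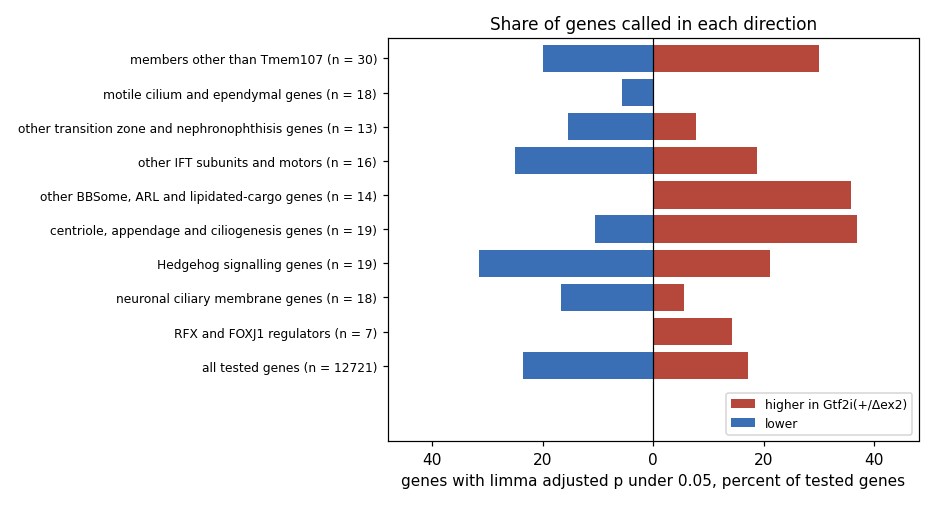
Percent of tested genes with a limma adjusted p under 0.05 that were higher (to the right) or lower (to the left) in the mutant, for the 30 members other than Tmem107, for 8 other lists of cilium genes and for all 12721 tested genes. The members had 30% higher and 20% lower, all tested genes 17.1% and 23.6%.

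Markers of other cell types were read on the same arrays. Multiciliated cells carry many of the same transport genes. Of 24 matched genes of the motile cilium and ependymal list 6 were not reliable (Dnah11, Spag6, Spag16, Cfap206, Sntn and Pifo). The summed signal of the 18 tested was 5482 to 5536 in the mutant and 5319 to 5678 in the wild type, ranges that overlap. Of 9 tested choroid plexus markers 3 rose (33.3%, beside 17.1% of all tested genes), Clic6 by 0.53, Ttr by 0.28 and Steap1 by 0.27, and 6 did not pass. The summed signal was 7149 to 7857 in the mutant against 6069 to 6392 in the wild type, with all 9 reliable. Thalamus markers averaged 0.01, 0.08 and 0.62 (log2 ratio) on the 3 arrays in order, so replicate 3 stood apart there. Their summed wild-type signal was 7369, 7673 and 3801 on replicates 1 to 3, and their summed mutant signal 8147, 9137 and 7263. Replicate 3 was thus low in the wild-type RNA for these markers. For Tmem107 it was low mainly in the mutant RNA, at 1324 against 3764 and 4417. A link between them was not tested. Beside the lists that follow, 17.1% of all tested genes were called higher and 23.6% lower, and nothing is read from the small counts. Markers of cortical excitatory neurons were well detected, 8 of 9 matched genes being tested, and 6 of the 8 fell. Of 8 GABA neuron markers 3 fell and 0 rose, with 2 higher at an unadjusted p under 0.05 in the limma fit. Of 8 astrocyte markers 4 fell and 2 rose, of 7 oligodendrocyte markers 3 fell and 1 rose, and of 7 microglia markers 6 fell and 1 rose. The part of these differences in the values of the members was not tested.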

How the data were processed

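Cortex RNA of both genotypes was compared on 3 two-colour arrays of 60-mer probes, from 500 ng of total RNA per the labels' protocols. The authors deposited linear intensity values for each spot in 2 channels, background-subtracted, normalized and turned for the dye swap per the deposited readme, which names GenePix and does not give the normalization method. They also deposited a log2 ratio per probe and, in the value table of the series, a score per spot that is the signed fold of the same ratio. It lay within 2% of the fold of the channels at 99.96% to 100% of spots, with medians of -1.01, -1 and 1 on replicates 1 to 3. Other values the authors deposited, such as spot calls, served as filters. The Pro25G dye control spots read 4.51, -4.54 and 4.58 (median log2) on replicates 1 to 3, which places genotypes, and not dyes, in the columns.

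Of 44290 spots on each array 41534 held gene probes. Spots of a probe were averaged, giving 41174 probes, of which 52.1% took a gene symbol from RefSeq accessions on GRCm38.p6. Probes reliable on at least 2 of 3 arrays were tested, where reliable per the readme means a foreground over 2 times the background. The mean log2 ratio was set against 0 with limma 3.58.1 in R 4.3.3, with Benjamini-Hochberg adjustment over all 27531 tested probes and a threshold of 0.05. A gene counts by its probe with the smallest p. Members are named, except 1 that is counted but not reported here, and in each other list up to 4 called genes with the smallest p. The fit was tested on simulated data with independent arrays and planted changes larger than those of the called members. That test therefore does not cover their calls. The members, lists and tests were chosen with earlier results of these data known. Errors are the SD of 3 arrays, whose number limits the precision. Dye orientation, filter, normalization, background, array weights, variance prior, the probe that stands for a gene and each left-out array were tried as alternatives. Tables were handled with the data.table package, version 1.17.8, pandas 2.3.3 and numpy 2.4.6, and figures drawn with matplotlib 3.10.9 in Python 3.11.15.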

Additional observations from a re-analysis of the deposited data

How the results depend on the processing

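Counts of calls moved with the arrays used and their weights. Members called higher numbered 9 and ranged from 1 to 9 when each replicate was left out in turn, and members called lower numbered 6 and ranged from 1 to 7. In the other cilium lists the 22 higher ranged from 6 to 26 and the 18 lower from 3 to 23, and the 9333 called probes from 2407 to 9886. The lowest value in each case came without replicate 1. With replicates 1 and 2 averaged and counted as 1, members higher were 7 and lower 3, list genes higher 11 and lower 12, and called probes 5122. Array weights were 5.84, 0.373 and 0.459 for replicates 1 to 3. With them members higher were 12 and lower 13, list genes higher 45 and lower 39, and called probes 18614. The median log2 ratio of the 30 members, -0.0038, was -0.015 with no filter on dim probes, 0.021 after loess, -0.026 with the negative control level subtracted, -0.020 with array weights and 0.019 by the brightest probe of each gene. It ranged from -0.018 to 0.0073 when replicates were left out, so its sign is not settled. Of the called members only Bbs4 changed sign, from -0.32 to 0.027 (limma adjusted p = 0.606) by its brightest probe. Members that were not called turned too. Ift81 went from -0.12 to 0.14 by its brightest probe and 0.013 by the mean of its probes. With replicates left out, Tmem67 ranged from -0.084 to 0.0052, Arl3 from -0.067 to 0.033, Bbs7 from -0.038 to 0.036, Ift27 from -0.016 to 0.12 and Ift80 from -0.0038 to 0.026. With the dye covariate Tmem67 read 0.0041, Bbs7 0.019 and Ift27 -0.011. Arl3 read 0.013 after loess and 0.022 with replicates 1 and 2 averaged, and Bbs7 0.0043 with centred arrays, 0.00032 with the offset and 0.0033 by the authors' deposited log2 ratio. Over the 30 members other than Tmem107, 367 values under the alternatives kept direction and side of the threshold, 34 lost their call, 18 gained one and 20 changed sign. Without replicate 2, 4 called members lost their call, among them Tctn3, Iqcb1 and Ift57, and without replicate 3 Tctn3 did. Why the counts moved with these settings was not tested. Turning the sign of every ratio was not run, since it would only exchange higher and lower. Each ratio already pairs a mutant pool with a wild-type pool on 1 array, and with 1 group of arrays no further pairing was possible. Subtracting the median of the negative controls, 72.3 to 81.4, moved a dim probe such as that of Bbs2 from -0.21 to -0.38.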
